A study of Papio anubis with 25 samples.

Results

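The submandibular gland and the pancreas of olive baboons (Papio anubis) are both glands that secrete proteins for digestion. Here the transcripts of submandibular libraries rich in salivary secretory RNA were compared with those of pancreas libraries. Bulk RNA was sequenced from the parotid, submandibular and sublingual glands, the pancreas and the liver of 5 animals, which gave 25 libraries. The comparison used 9 of them. It set the 4 submandibular libraries in which BPIFA2 was listed at 2000 TPM or more (baboons 1, 3, 4 and 5) against all 5 pancreas libraries, and the liver libraries served as a further tissue of the same animals. TPM is a transcript abundance corrected for transcript length and expressed relative to the whole library. No genotype, treatment or age is given in the labels used here; baboons 1 to 4 are labelled female and baboon 5 male, the salivary glands were from the left side, and the tissue was flash frozen.

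BPIFA2 encodes a protein of the BPI fold family that is secreted abundantly into saliva by salivary acinar cells. It was at 46591, 35896, 36518 and 28937 TPM in the submandibular libraries of baboons 1, 3, 4 and 5. In the submandibular library that was left out, that of baboon 2, it was at 1044 TPM. The pancreas libraries of baboons 1 to 5 held 1048, 1230, 936, 892 and 582 TPM, so the omitted submandibular library was within the range of the pancreas. The submandibular libraries were thus chosen by their BPIFA2 level, and its own fold change is no finding. Genes that share its cell of origin were favoured by the same choice, so the fit with all 5 submandibular libraries, which needs only the labels, is given beside many of them. Where it is not given, the adjusted p is that of the 4 chosen libraries.

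Salivary glands and the exocrine pancreas share a plan, with acini that make and store secretory protein and ducts that carry and modify the fluid. The submandibular gland has serous and mucous acini, striated ducts that reabsorb salt, and contractile myoepithelial cells around its acini. The pancreas has acini devoted to digestive zymogens, ducts that secrete bicarbonate, and islets of endocrine cells. Acinar identity in the pancreas is held by PTF1A with its partner RBPJL, whereas transcription factors such as SOX10 and ELF5 mark salivary epithelium.

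Sequencing depth is unknown, since it cannot be read from TPM, and the spread between animals is the only error given. In bulk tissue, fewer cells of a type and less RNA per cell cannot be told apart. The 10 highest genes took 57.9% to 83.2% of each submandibular library and 40.3% to 46.7% of each pancreas library. MUC7, OPRPN and SCGB2A2 were higher in each of the 4 submandibular libraries than in any pancreas library, and SYCN and CLPS were lower. The choice by BPIFA2 favoured the salivary markers, so their levels do not check the submandibular labels. The other submandibular libraries resembled each other more than they did that of baboon 5. Its correlation with them across genes was 0.919 to 0.924, against 0.955 to 0.979 among the other 3, and its summed level of 10 adipocyte genes was 12437 TPM against 193 to 320 TPM.

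The fit covered 11496 genes that averaged 1 TPM or more in the submandibular or the pancreas group. Of these, 1309 were called different (11.4%), by limma with the animal as a random block, at an adjusted p below 0.05 and a log2 fold change of 1 or more in size. Higher levels in the submandibular gland were called for 480 genes (4.18% of those tested; BPIFA2 is counted as 1 of them) and lower levels for 829 (7.21%). The counts of the gene lists below stand beside these shares of all genes. Fold changes are on the log2(TPM + 1) scale, which understates the change of low genes. The median log2 fold change of all genes tested was -0.17. Scaling the libraries by TMM, which allows for a few genes filling a library, moved that median by 0.19 to 0.02 and the calls to 774 higher (6.79%) and 758 lower (6.65%). Without the submandibular library of baboon 5, 2176 genes were called, 527 higher and 1649 lower. Without the pancreas library of baboon 5, 1275 were called lower. With all 5 submandibular libraries, 817 genes were called (6.47% of 12618 tested), 353 higher (2.8%) and 464 lower (3.68%).

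**Figure D1:**
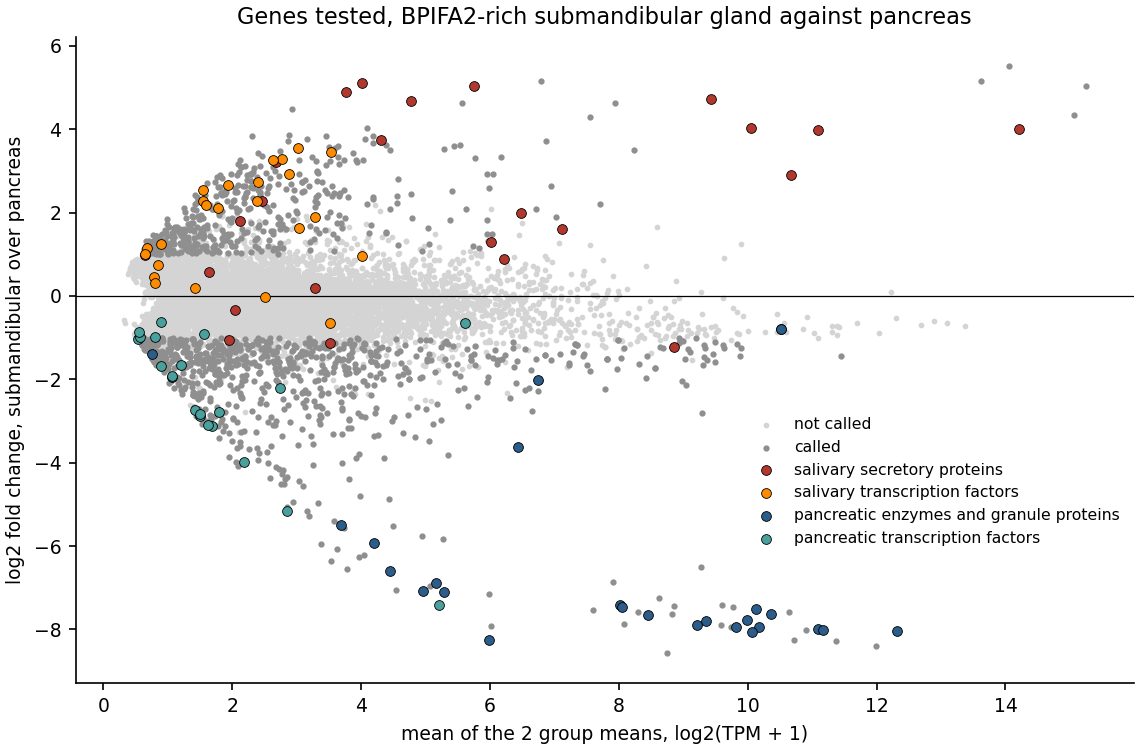
Log2 fold change of submandibular gland over pancreas (y axis) against the mean of both group means on the log2(TPM + 1) scale (x axis), 1 point per gene tested other than BPIFA2, with called genes in darker grey and 4 sets of genes coloured. SYCN (-8.26) and CLPS (-8.03) are among the lowest pancreatic genes, and SCGB2A2 (5.10) and PRR27 (5.03) are the highest salivary ones.

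Genes of secreted salivary proteins were mostly higher in the submandibular gland or not called. Of 25 salivary secretory genes tested, leaving BPIFA2 aside, 13 were higher in the submandibular gland, 1 was lower and 11 were not called, with a median log2 fold change of 1.99. These counts cannot be read as independent of the choice of libraries. With all 5 submandibular libraries, 11 of the 25 were called higher and none lower. Their summed level was 69574 to 124706 TPM in the 4 libraries, 7043 to 12331 TPM in pancreas and 8647 TPM in the omitted library.

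MUC7, the small salivary mucin that binds and clears bacteria, was at 9327, 1967, 3145 and 2790 TPM in the submandibular libraries of baboons 1, 3, 4 and 5. In pancreas it was at 213, 165, 63.0, 68.6 and 281 TPM in baboons 1 to 5. The groups did not overlap, and baboon 1 was high in the submandibular group (log2 fold change 4.71 ± 0.60 SE, adjusted p = 0.00016, higher in 4 of 4 pairs). With all 5 submandibular libraries the log2 fold change was 3.99 (adjusted p = 0.0058).

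OPRPN, which encodes a proline-rich secreted peptide precursor, was at 230, 17.1, 141 and 52.8 TPM against 0.0775, 4.96, 1.75, 0.774 and 1.92 TPM in pancreas. SCGB2A2, a secretoglobin also called mammaglobin, was at 346, 6.01, 172 and 195 TPM against 0, 2.17, 1.83, 2.20 and 4.65 TPM. Baboon 3 was the lowest submandibular library for both genes and came close to the highest pancreas value of SCGB2A2. The log2 fold changes were 4.88 ± 0.70 SE for OPRPN (adjusted p = 0.00041) and 5.10 ± 0.99 SE for SCGB2A2 (adjusted p = 0.0038). Both stayed called with all 5 submandibular libraries (adjusted p of 0.0070 for OPRPN and 0.022 for SCGB2A2).

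PRH2, an acidic proline-rich protein that binds calcium and tannins, was at 74459, 101730, 97565 and 47134 TPM in the submandibular libraries. Its pancreas values were 5733, 6193, 6440, 6042 and 1711 TPM, with baboon 5 the lowest in both tissues. The ratio of the means was 15.4, and the log2 fold change was 4.01 ± 0.44 SE (adjusted p = 4.7e-05; 0.0077 with all 5 submandibular libraries). PIP, an aspartyl protease homologue secreted in saliva and tears, had a mean of 8881 ± 1909 TPM (SD, n = 4) against 597 ± 290 (n = 5). CA6, the secreted carbonic anhydrase that buffers saliva, had a mean of 4620 ± 1868 against 268 ± 71.7 TPM. PRR27, which encodes a proline-rich protein, was at 347 ± 170 against 8.70 ± 2.60 TPM, and FDCSP, a small secreted peptide gene of the same gene cluster as OPRPN in human, at 188 ± 136 against 5.32 ± 3.57 TPM. All 4 genes were called, with adjusted p of 0.00044 or less. They remained called with all 5 submandibular libraries, where the adjusted p was 0.045 for PIP, 0.019 for CA6 and 0.0061 for PRR27.

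LPO, the lactoperoxidase of saliva, had a log2 fold change of 3.73 ± 0.38 SE, PRR4 of 3.22 ± 0.52 and FAM3D of 2.28 ± 0.37. All 3 stayed called with all 5 submandibular libraries (adjusted p = 0.0063, 0.023 and 0.019). ZG16B, a lectin-like salivary protein, had a log2 fold change of 2.90 ± 0.77 (adjusted p = 0.024), which was not called without the submandibular library of baboon 1 or of baboon 3 (highest adjusted p 0.070) or with all 5 submandibular libraries (adjusted p = 0.14). The lysozyme gene LYZ was at 104 ± 24.6 TPM in the submandibular gland and 69.7 ± 46.5 in pancreas, and was not called. BPIFB2 was not called either (adjusted p = 0.11) and varied from 0.861 TPM in baboon 3 to 17.9 in baboon 5. It was called with the animal as a fixed block (adjusted p = 0.032), under TMM scaling (0.026) and without the submandibular library of baboon 3 (0.012).

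The 1 secretory gene called lower was AZGP1, which encodes a zinc-binding glycoprotein of many body fluids. It was at 360, 370, 276 and 225 TPM against 699, 723, 900, 669 and 596 TPM in pancreas, with no overlap. Its log2 fold change was -1.23 ± 0.30 SE (adjusted p = 0.016). The call was lost without the pancreas library of baboon 3 (adjusted p = 0.063), with the animal as a fixed block (adjusted p = 0.062), with all 5 submandibular libraries (adjusted p = 0.084) and under TMM scaling, where the log2 fold change was -0.97. KLK1, tissue kallikrein, a serine protease known in both organs, was not called (adjusted p = 0.29). It was at 1028, 2792, 1020 and 535 TPM against 2011, 2136, 1789, 1614 and 2094 TPM, and at 31.5 to 63.1 TPM in liver. Baboon 3 was above every pancreas library and the other 3 submandibular libraries were below, and without baboon 3 KLK1 was called lower (log2 fold change -1.22, adjusted p = 0.041).

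**Figure D2:**
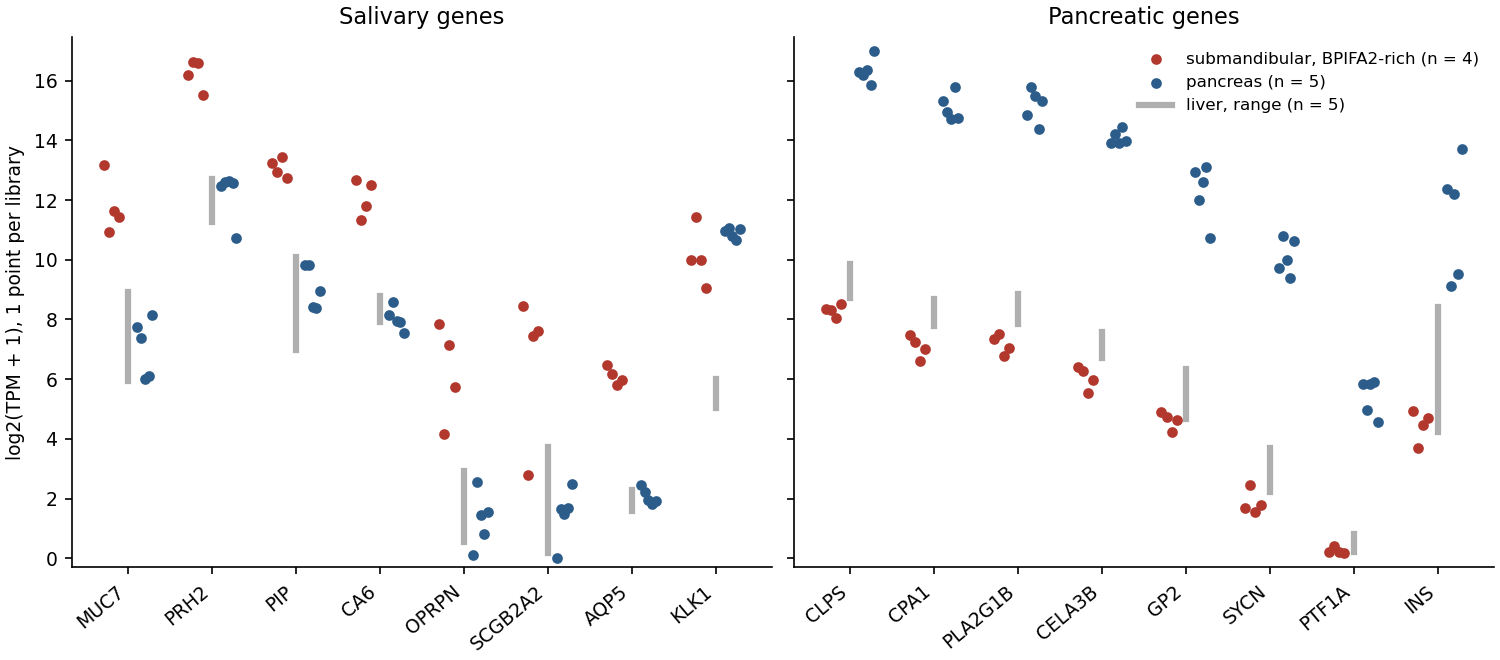
Level of 8 salivary and 8 pancreatic genes as log2(TPM + 1) on the y axis, with 1 point per library in red for the 4 submandibular and in blue for the 5 pancreas libraries, and a grey bar for the range of the 5 liver libraries. MUC7 to AQP5 are higher in all 4 submandibular libraries, KLK1 overlaps between the organs, and the pancreatic genes are low in submandibular gland.

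Several of the most abundant submandibular transcripts carry only a locus number in this annotation. The 6 highest genes by mean, LOC103884417, LOC103881672, LOC101021528, PRH2, LOC101011282 and BPIFA2, took 79.6%, 71.0%, 80.2% and 52.0% of the libraries of baboons 1, 3, 4 and 5. In pancreas they took 1.37% to 3.15%, and in the omitted submandibular library 3.38%. LOC103884417 lies between CSN2 and HTN1 in the gene order of chromosome 3, an interval that holds statherin and histatin genes in human. It was at 283861, 162391, 317371 and 167128 TPM against 7008, 8357, 8129, 5754 and 5246 TPM in pancreas (log2 fold change 5.02 ± 0.27 SE, adjusted p = 5.9e-08; 0.0050 with all 5 submandibular libraries). LOC101011282 lies between CABS1 and OPRPN on the same chromosome and had a ratio of means of 35.9. LOC101021528 lies between CST9 and SYNDIG1 on chromosome 16, next to salivary cystatin genes in human, with a ratio of 46.1. LOC103881672 lies between TAS2R42 and ETV6 on chromosome 9, in the region of the proline-rich protein genes in human, with a ratio of 19.3. What these genes encode was not established from their position. Reads from near-identical copies can be divided between them, so single-copy values are uncertain for them and for PRH2.

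An unplaced locus was high in 1 animal. LOC101023064 was at 9964 TPM in the submandibular library of baboon 4 and at 555 to 1032 TPM in those of baboons 1, 3 and 5, against 215 to 917 TPM in pancreas. HTN1, which encodes a histatin, an antifungal peptide of saliva, was also highest in baboon 4, at 947 TPM against 124, 227 and 36.2 TPM in baboons 1, 3 and 5. Neither was called against pancreas (adjusted p = 0.40 and 0.16). HTN1 was called with the animal as a fixed block (adjusted p = 0.037) and without the submandibular library of baboon 5 (0.0038).

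Salivary transcripts were also present in pancreas and liver, mostly at low and similar levels. For the 13 salivary secretory genes called higher, the pancreas mean was 1.21% to 27.7% of the submandibular mean, with a median of 5.79%, and the liver mean was 2.03% to 24.7%, with a median of 5.75%. The gene at 27.7% in pancreas was at 7.26% in liver, and the 24.7% in liver was that of ZG16B, at 19.8% in pancreas. PRH2 averaged 5224 ± 1980 TPM in pancreas and 4612 TPM in liver. BPIFA2 averaged 938 TPM in pancreas and 970 TPM in liver. The source of these levels, reads carried over between libraries included, was not tested, and every fold change above is taken over them.

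Mucins and the enzymes that attach their sugars divided between the organs. Of 17 genes tested, 6 were higher in the submandibular gland, 3 were lower and 8 were not called. All genes tested gave 4.18% higher and 7.21% lower. The median was 0.08 against -0.17 for all genes. With all 5 submandibular libraries the counts were 4 higher and 3 lower. MUC19, a gel-forming mucin of salivary mucous cells, was at 59.8, 12.8, 27.6 and 24.5 TPM against 0.443 to 1.82 TPM in pancreas (log2 fold change 3.85 ± 0.43 SE, adjusted p = 5.4e-05). ST6GALNAC1, which adds sialic acid to mucin core sugars, was at 60.7, 21.5, 36.6 and 32.3 TPM against 0.0916 to 1.10 TPM (log2 fold change 4.48 ± 0.34, adjusted p = 1.7e-06). With all 5 submandibular libraries the adjusted p was 0.0041 for MUC19 and 0.0080 for ST6GALNAC1. ST3GAL1 and GALNT12, a sialyltransferase and an enzyme that starts O-linked chains, had log2 fold changes of 1.67 and 1.64.

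The 3 lower genes were MUC1, TFF3 and GALNT6. MUC1, a membrane mucin of the apical surface, was at 0.565, 1.55, 0.557 and 0.746 TPM against 29.0 to 80.1 TPM in pancreas. The groups were far apart, with a ratio of pancreas over submandibular means of 69.2 (log2 fold change -4.96 ± 0.39 SE, adjusted p = 2.2e-06). TFF3, a trefoil peptide, was at 0.173 to 1.34 TPM against 1.85 to 27.7 TPM. GALNT6, another enzyme that starts O-linked chains, was at 2.50 ± 0.84 TPM against 17.4 ± 2.70 TPM. GALNT12 and GALNT6, which carry out the same reaction, were thus called in opposite directions.

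Transcripts of fluid and salt transport genes differed in part between the organs. Of 23 transport genes tested, 12 were higher in the submandibular gland, 4 were lower and 7 were not called, with a median of 1.15. The shares over all genes were 4.18% higher and 7.21% lower. With all 5 submandibular libraries, 9 were higher and 3 lower. AQP5, the apical water channel of salivary acini, was at 88.3, 70.8, 54.7 and 61.8 TPM against 4.52, 3.65, 2.89, 2.53 and 2.76 TPM in pancreas. No library overlapped, and the log2 fold change was 4.02 ± 0.30 SE (adjusted p = 1.4e-06; with all 5 submandibular libraries 3.34, adjusted p = 0.0040). AQP3, a basolateral channel, was at 39.3 ± 8.12 against 2.37 ± 1.10 TPM. AQP1, the channel of capillary endothelium and myoepithelium, was at 66.9 ± 20.9 against 4.19 ± 1.03 TPM, and it was higher still, at 237 TPM, in the omitted library.

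AQP8 was the reverse case. This water channel of the pancreatic acinar apical membrane was at 2.65, 2.01, 1.77 and 2.80 TPM in the submandibular libraries and at 490, 311, 399, 409 and 357 TPM in pancreas. The ratio of the means was 170, and the log2 fold change was -6.88 ± 0.30 SE (adjusted p = 8.8e-09).

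Among the chloride and potassium channels named here, ANO1 and KCNN4 were called but CFTR was not. ANO1, the calcium-activated chloride channel of acinar cells, was at 19.0, 5.56, 11.1 and 6.97 TPM against 0.717 to 1.27 TPM (log2 fold change 2.40 ± 0.34, adjusted p = 0.00034). KCNN4, the calcium-activated potassium channel that keeps the driving force for chloride, was at 33.0 ± 10.1 against 2.71 ± 0.70 TPM. CFTR, the cAMP-regulated chloride channel of ducts, was not called, with means of 3.18 ± 1.97 and 4.48 ± 1.55 TPM that overlapped.

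Transcripts for ion handling by ducts and for acid-base enzymes also differed in part. HSD11B2, which protects the mineralocorticoid receptor in salt-reabsorbing epithelia, was at 23.5, 67.3, 57.2 and 28.4 TPM against 1.95 to 3.21 TPM (log2 fold change 3.55 ± 0.35 SE). Its adjusted p with all 5 submandibular libraries was 0.016. The carbonic anhydrase CA12 had a log2 fold change of 3.44 ± 0.33 and the proton pump subunit ATP6V1B1 of 2.54 ± 0.37. CA2, the cytosolic carbonic anhydrase, had 2.40 ± 0.38 and was not called with all 5 submandibular libraries (adjusted p = 0.13). The sodium channel subunit SCNN1B was not called, at 4.88 ± 1.24 against 7.05 ± 2.81 TPM.

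The other lower transport genes were bicarbonate genes. SLC4A4, the sodium bicarbonate cotransporter that loads pancreatic duct cells, was at 0.0350, 0.0233, 0.0293 and 0.250 TPM against 2.65 to 5.02 TPM in pancreas (log2 fold change -2.13 ± 0.24, adjusted p = 5.9e-05). CA4, a membrane carbonic anhydrase, was at 1.78 ± 0.97 against 21.0 ± 6.62 TPM (log2 fold change -3.02 ± 0.36). SLC4A2, a chloride-bicarbonate exchanger, had a log2 fold change of -1.22 ± 0.32 (adjusted p = 0.023; 0.061 with the animal as a fixed block). Its call was lost when the submandibular or the pancreas library of baboon 1, 3 or 4 was left out (highest adjusted p 0.081) and with all 5 submandibular libraries (adjusted p = 0.46).

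Transcription factors separated the organs at far lower levels than their secreted products. Of 24 salivary epithelium factors tested, 16 were higher in the submandibular gland, none was lower and 8 were not called, with a median of 2.00. The share called higher over all genes was 4.18%. With all 5 submandibular libraries, 13 of the factors were called. SPDEF, which drives mucous differentiation, was at 31.0, 22.1, 28.0 and 26.4 TPM against 1.08 to 1.65 TPM in pancreas (log2 fold change 3.55 ± 0.25 SE, adjusted p = 9.0e-07). It varied little within each group. SOX10, required for salivary acinar and myoepithelial cells, was at 31.2, 21.6, 16.5 and 15.5 TPM against 0.735 to 1.56 TPM (log2 fold change 3.29 ± 0.29). PITX1, a factor of the oral ectoderm, had a log2 fold change of 3.44, FOXC1 2.93, ELF5 2.72 and IRX2 2.67.

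Duct factors were among them. TFCP2L1, a factor of ducts, was at 6.24 ± 1.82 against 0.22 ± 0.10 TPM (log2 fold change 2.53 ± 0.24, adjusted p = 1.3e-05). Its adjusted p with all 5 submandibular libraries was 0.014. ASCL3 and FOXI1 mark ionocytes, rare cells rich in proton pumps. ASCL3 was at 4.87, 8.41, 4.87 and 4.10 TPM against 0 to 0.685 TPM, and FOXI1 at 1.20 to 1.68 against 0 to 0.166 TPM. Both were at 0 in the omitted submandibular library, and neither was called when it was included (adjusted p = 0.053 and 0.091). SOX9, a progenitor and duct factor of both organs, was at 4.94 ± 2.40 and 5.13 ± 2.49 TPM. ELF3, an epithelial factor, was at 8.32 ± 1.03 and 13.9 ± 5.97 TPM, and neither was called.

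**Figure D3:**
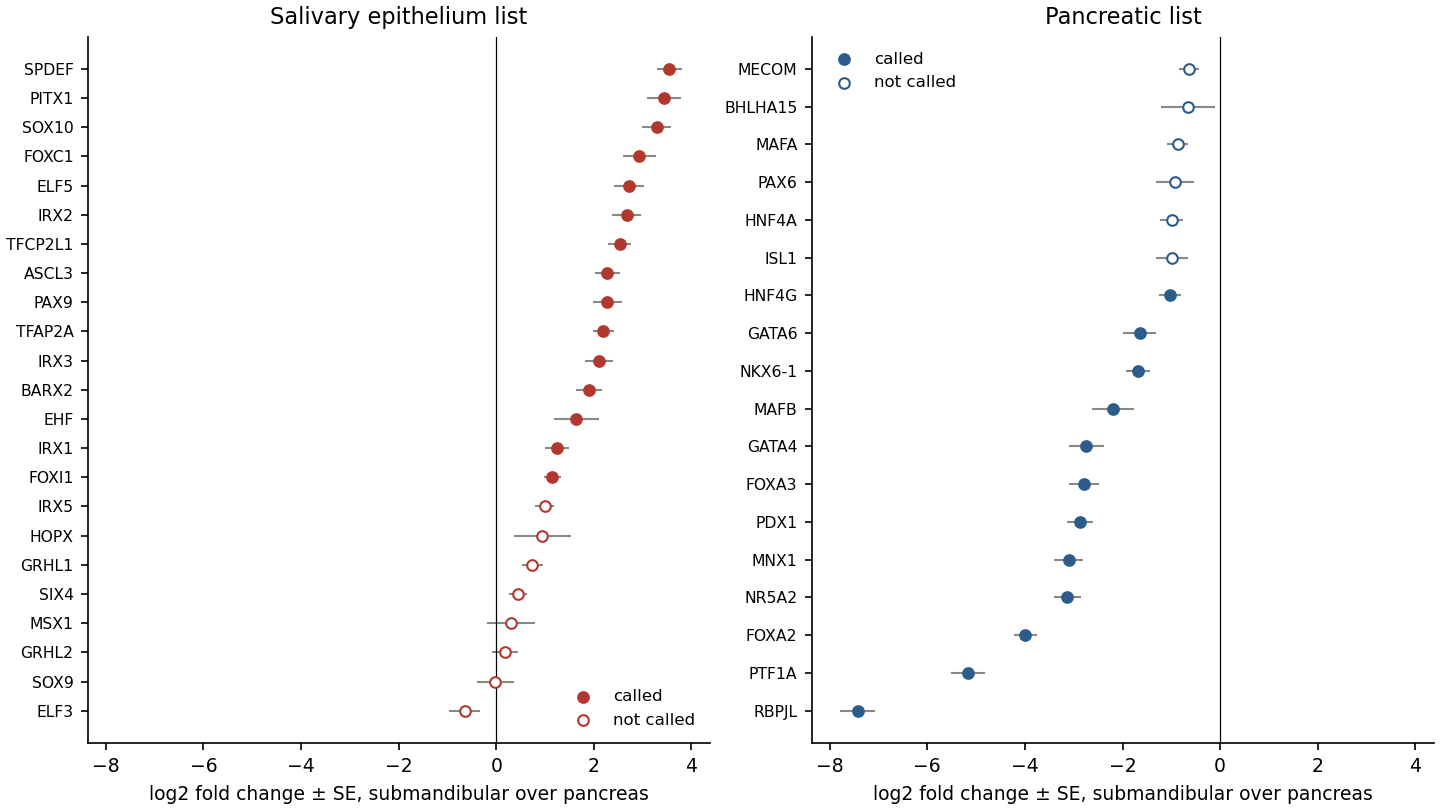
Log2 fold change of submandibular gland over pancreas with its standard error (x axis) for salivary epithelium and pancreatic factors (y axis; not every factor tested is drawn), with filled points for called genes. SPDEF, PITX1 and SOX10 are highest, and RBPJL, PTF1A and FOXA2 are lowest.

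Keratins of the basal and myoepithelial layers were higher in the submandibular gland, as was KRT7 of duct epithelium, while KRT8, KRT18 and KRT19 were not called. Of 23 duct and myoepithelial genes tested, 13 were higher, 3 were lower and 7 were not called, with a median of 1.43. The shares over all genes were 4.18% higher and 7.21% lower. With all 5 submandibular libraries, 10 of these genes were called higher. KRT14 was at 33.7, 67.3, 21.7 and 12.1 TPM against 1.41 to 7.62 TPM in pancreas (log2 fold change 2.39 ± 0.51 SE, adjusted p = 0.0073), and KRT5, its partner, was at 31.7 ± 12.9 against 5.48 ± 3.89 TPM. KRT23 had a log2 fold change of 3.26 ± 0.32. KRT7 had 1.71 ± 0.32 and was not called with all 5 submandibular libraries (adjusted p = 0.13). KRT8 was at 50.7 ± 13.1 against 61.4 ± 14.6 TPM, KRT18 at 32.7 ± 8.25 against 45.0 ± 6.94 TPM and KRT19 at 10.1 to 19.1 against 15.9 to 21.2 TPM. The 3 genes called lower were the tight-junction genes CLDN10, CLDN7 and CLDN3, with log2 fold changes of -2.43, -1.52 and -1.45. Tight-junction genes did not all go this way, since CLDN8, on the same list, was called higher in the submandibular gland.

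Contractile genes of myoepithelial cells, which smooth muscle shares, were higher but uneven. MYH11, smooth muscle myosin, was at 7.93, 17.6, 5.41 and 36.8 TPM against 0.650 to 1.60 TPM (log2 fold change 2.86 ± 0.47 SE, adjusted p = 0.0011). CNN1, calponin, was at 8.47, 19.6, 5.00 and 21.9 TPM against 0.473 to 1.58 TPM. ACTA2, smooth muscle actin, was at 45.9, 96.0, 23.2 and 150 TPM against 6.61 to 22.6 TPM, and its call (log2 fold change 2.44, adjusted p = 0.014) was lost without the submandibular library of baboon 3 (adjusted p = 0.055). Baboon 5 was the highest for all 3 genes. The same library held 919 TPM summed over 14 endothelium and fibroblast genes against 64.3 to 93.0 TPM in the other 3, and the part of vessels in these values was not tested.

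Digestive zymogens of the pancreas were lower in the submandibular gland by similar factors. Of 8 genes on the protease zymogen list that could be tested, 7 were lower, with log2 fold changes of -7.42 to -8.06; the eighth was KLK1. All 4 lipase genes tested were lower, with a median of -7.95. The same 7 and 4 genes were called with all 5 submandibular libraries. CPA1, carboxypeptidase A1, was at 177, 151, 97.0 and 129 TPM in the submandibular libraries and at 40562, 31451, 26663, 55949 and 27565 TPM in pancreas (log2 fold change -8.00 ± 0.31 SE, adjusted p = 6.8e-09). CLPS, colipase, the cofactor of pancreatic lipase, was at 323, 316, 262 and 362 TPM against 79149, 75345, 83261, 58983 and 128694 TPM (log2 fold change -8.03 ± 0.27, adjusted p = 3.3e-09). The groups were far apart for both genes.

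PLA2G1B, pancreatic phospholipase A2, averaged 146 ± 31.6 TPM against 38706 ± 13592 TPM. CELA3B, a pancreatic elastase, averaged 66.6 ± 16.7 against 17684 ± 3004 TPM, and CTRL, a chymotrypsin-like protease, 73.2 ± 8.78 against 19246 ± 6696 TPM. The bile-salt-stimulated lipase gene CEL averaged 38.2 ± 8.72 against 9419 ± 2264 TPM. For the 7 proteases called, the submandibular mean was 0.376% to 0.591% of the pancreas mean, and for the 4 lipases 0.371% to 0.436%. For the 13 granule and other acinar genes called lower, described below, it was 0.235% to 24.4%, with a median of 0.559%. The source of these low submandibular levels, reads carried over between libraries included, was not tested, and the fold changes are taken over them.

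Trypsinogen genes are not named in the annotation. LOC100998585 and LOC101007403 lie between EPHB6 and PRSS58 on chromosome 4, the interval of the trypsinogen genes in human. LOC100998585 was at 157, 290, 190 and 262 TPM against 101618, 49927, 72650, 78934 and 82692 TPM (log2 fold change -8.40 ± 0.29, adjusted p = 3.3e-09). LOC101027045 lies between EFHD2 and CASP9 on chromosome 1, where human has chymotrypsin C and elastase 2 genes, and averaged 155 ± 38.8 against 49007 ± 17748 TPM. LOC101010627 lies between PNLIPRP1 and PNLIPRP3 on chromosome 11 and averaged 121 ± 28.7 against 32103 ± 9080 TPM. Their products were not established from their position.

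Proteins of the zymogen granule and other acinar genes gave the lowest named gene of the comparison. Of 14 tested, 13 were lower and 1, REG1B, was not called, with a median of -6.74. REG1B, a lectin-like secreted protein, was close to the threshold (log2 fold change -1.95, adjusted p = 0.060). It was called lower under TMM scaling (adjusted p = 0.045), with no block (0.049), with a fixed block (0.017), and without the submandibular library of baboon 5 or the pancreas library of baboon 2, 4 or 5. SYCN, syncollin, a granule membrane protein, was at 2.21, 4.46, 1.91 and 2.42 TPM against 841, 1769, 1008, 662 and 1582 TPM (log2 fold change -8.26 ± 0.39 SE, adjusted p = 2.3e-08). GP2, the major granule membrane glycoprotein, averaged 24.0 ± 4.64 against 5743 ± 2875 TPM, ZG16, a granule lectin, 57.1 ± 7.22 against 15678 ± 6558 TPM, and SPINK1, the trypsin inhibitor, 69.0 ± 15.4 against 15407 ± 3950 TPM. ERP27, an endoplasmic reticulum protein, and CUZD1, a granule protein, had log2 fold changes of -7.08 and -7.10. GATM, which makes a creatine precursor, and FKBP11, a folding enzyme of secretory cells, fell by 3.63 and 2.02 on the log2 scale.

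The liver libraries give the level of the same transcripts in a tissue that is neither gland. Most pancreatic enzyme genes were at low levels in it as well. Of 12585 genes tested against liver, 4995 (39.7%) were called, 605 higher (4.81%) and 4390 lower (34.9%), with a median log2 fold change of -0.74. CPA1 averaged 299 TPM in liver and 139 TPM in the submandibular gland (log2 fold change -1.09, adjusted p = 0.019), and CLPS 787 and 316 TPM (-1.28, adjusted p = 0.0083). Of the 4 lipases all were called lower than liver, as were 4 of 8 zymogen list genes. Under TMM scaling, which moved the median to -0.03 and the calls against liver to 26.5% of the genes, 1436 higher (11.5%) and 1887 lower (15%), none of these 8 was called; the log2 fold changes were then -0.17 for CPA1 and -0.32 for CLPS. SPINK1, which hepatocytes also express, stayed lower under TMM scaling, with a log2 fold change of -3.76. The submandibular libraries are shared by both comparisons.

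**Figure D4:**
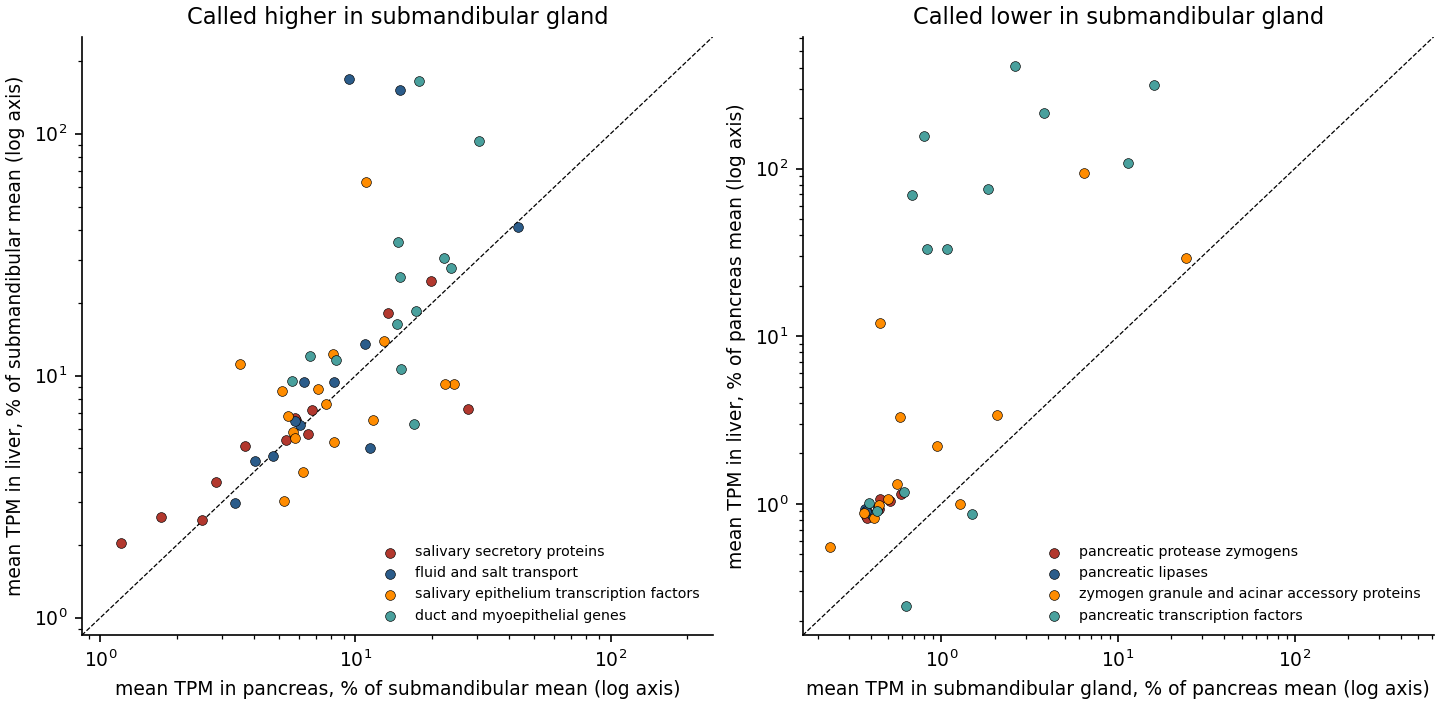
Mean level of called genes in the organ where they are low (x axis) and in liver (y axis), both as a percent of the mean in the organ where they are high, on log axes, with 1 point per gene and a dashed line of equality. Most salivary genes lie near the line, and the zymogen and lipase genes form 1 cluster at 0.371% to 0.591% on the x axis and 0.821% to 1.15% on the y axis.

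Pancreatic transcription factors were lower in the submandibular gland together with the enzymes. Of 20 tested, none was higher, 14 were lower and 6 were not called, with a median of -2.06; 12 were called with all 5 submandibular libraries. PTF1A, the acinar determinant, was at 0.162, 0.343, 0.152 and 0.127 TPM against 56.8, 30.6, 56.7, 59.6 and 23.0 TPM in pancreas (log2 fold change -5.17 ± 0.35 SE, adjusted p = 6.0e-07). RBPJL, its partner in acinar cells, was at 1.93 ± 0.85 against 496 ± 148 TPM (-7.42 ± 0.36, adjusted p = 2.3e-08). NR5A2, a nuclear receptor of acinar genes, GATA4 and MNX1 had log2 fold changes of -3.13, -2.74 and -3.11.

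Factors of the endodermal lineage behaved alike in direction. FOXA2, a pioneer factor of endoderm, was at 0.247, 0.123, 0.0681 and 0.115 TPM against 13.7 to 19.7 TPM in pancreas and 16.0 to 35.5 TPM in liver (log2 fold change against pancreas -3.99 ± 0.24). FOXA3, of the same family, averaged 0.33 against 8.63 TPM. PDX1, which pancreatic development and beta cells need, was at 0 to 0.0721 TPM against 4.58 to 9.78 TPM, and NKX6-1, a beta-cell factor, at 0 to 0.0822 against 1.37 to 3.78 TPM. BHLHA15, also called MIST1, a factor of secretory cells in both organs, went in the same direction but was not called (adjusted p = 0.53). It was at 55.8, 26.1, 54.8 and 25.6 TPM against 115, 40.3, 81.6, 102 and 22.2 TPM, with overlap. Without the pancreas library of baboon 5 it was called lower.

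Insulin and amylin led the 4 islet genes that were called. Of 14 genes tested, 4 were lower, INS, IAPP, TTR and ABCC8, and 10 were not called. Lower calls made up 7.21% of all genes tested, a smaller share than among these 14. The median was -1.002 against -0.17 for all genes. INS, insulin, was at 29.7, 11.9, 21.1 and 24.9 TPM against 5248, 562, 4704, 732 and 13411 TPM in pancreas. Among the pancreas libraries, baboons 2 and 4 were far lower than the other 3 (log2 fold change -6.85 ± 0.87 SE, adjusted p = 0.00015). IAPP, amylin, which beta cells release with insulin, was at 12.4 and 13.2 TPM in the same 2 pancreas libraries and at 390, 160 and 284 TPM in the other 3. GCG, glucagon, was at 280 TPM in the pancreas of baboon 1 and 0.752 TPM in that of baboon 2, and was not called (adjusted p = 0.16), nor was SST (adjusted p = 0.30). With the animal as a fixed block, which leaves out the pancreas of baboon 2, both were called lower (GCG adjusted p = 0.0058, SST 0.019). TTR, a thyroxine carrier of islets and liver, and ABCC8, a subunit of the beta-cell potassium channel, had log2 fold changes of -2.77 and -1.94.

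The 4 protein-coding genes annotated between RNPC3 and PRMT6 on chromosome 1, where the amylase genes lie in human, summed to 386, 603, 793 and 280 TPM in the submandibular libraries and to 16137 to 22053 TPM in pancreas. The means were 515 ± 229 and 19189 ± 2144 TPM, a difference of -5.32 in log2(sum + 1) (exact two-sided permutation test over 126 arrangements, p = 0.00794, the smallest it can give; BH-adjusted over both tests 0.00794). LOC116268615 made up 52.4%, 78.1%, 84.8% and 64.5% of that sum in the submandibular libraries and 1.06% to 13.0% in pancreas, a difference of 63.5 percentage points (exact two-sided permutation test, p = 0.00794, BH-adjusted 0.00794). Within the 4 animals that have both libraries, 2 of the 16 sign arrangements were as large for each difference, the fewest possible and too many to reach 0.05, so both calls rest on exchanging all 9 libraries. In liver the share of LOC116268615 was 40.2 ± 9.43% (26.1% to 50.9%) of a sum of 453 ± 125 TPM. In the omitted submandibular library it was 33.7% of 998 TPM, below the 4 chosen libraries and within the liver range. With all 5 submandibular libraries the difference in share from pancreas was 56.2 percentage points (exact two-sided permutation test, p = 0.00794). LOC101017419 and LOC101018739 were lower, with log2 fold changes of -7.47 and -6.50. LOC116268615 itself was at 202, 471, 672 and 181 TPM against 2570, 1020, 1376, 1107 and 197 TPM and was not called (adjusted p = 0.20), though it was without the pancreas library of baboon 5. Near-identical copies make the split between single genes of this interval uncertain.

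Receptors for the signals that trigger secretion differed in kind. Of 13 tested, 3 were higher in the submandibular gland (CHRM1, ADRB1 and VIPR1), 5 were lower (SCTR, CCKAR, GLP1R, GRPR and INSR) and 5 were not called. All genes tested gave 4.18% higher and 7.21% lower, both smaller shares than among these 13. The median was -0.03 against -0.17 for all genes. The counts were also 3 higher and 5 lower with all 5 submandibular libraries. CHRM1, a muscarinic receptor, was at 1.30 to 6.27 TPM against 0 to 0.0774 TPM in pancreas (log2 fold change 1.84 ± 0.32 SE, adjusted p = 0.0017). ADRB1, the adrenergic receptor through which sympathetic nerves elicit protein secretion in saliva, was at 2.81, 3.48, 2.58 and 2.22 TPM against 0.152 to 0.392 TPM (1.60 ± 0.20). With all 5 submandibular libraries the adjusted p was 0.024 for CHRM1 and 0.037 for ADRB1. VIPR1, a receptor for vasoactive intestinal peptide, had a log2 fold change of 2.10 ± 0.28. CHRM3, the muscarinic receptor of acinar cells in both organs, was at 1.08 ± 0.46 against 1.13 ± 0.57 TPM and was not called.

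The 5 lower receptors included those for secretin and cholecystokinin. SCTR, the secretin receptor of pancreatic ducts, was at 0.428, 0.650, 0.195 and 2.56 TPM against 40.2, 47.8, 29.4, 37.7 and 33.2 TPM (log2 fold change -4.44 ± 0.36, adjusted p = 3.0e-06). CCKAR, a cholecystokinin receptor, was at 0 to 0.0800 TPM against 46.6, 5.44, 1.22, 7.94 and 5.28 TPM (-2.97 ± 0.69, adjusted p = 0.011), with baboon 1 far above the other pancreas libraries. GLP1R, which binds an incretin, had a log2 fold change of -2.45 and GRPR, a bombesin-family receptor, of -1.28. INSR, the insulin receptor, had -1.15 (adjusted p = 0.020); its call was lost without the pancreas library of baboon 1 or 2 or the submandibular library of baboon 3 or 4 (highest adjusted p 0.068), with the animal as a fixed block (0.075) and under TMM scaling (-0.95).

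Most genes of the shared secretory machinery were not called, though a larger share was called than among all genes. Of 22 genes of regulated exocytosis tested, 1 was higher (SYT7), 4 were lower (RAB26, STXBP2, UNC13D and SYTL1) and 17 were not called, and no gene was called higher and 3 lower with all 5 submandibular libraries. Among all genes tested, 11.4% were called, a smaller share than among these 22. Under TMM scaling 2 of 21 exocytosis genes were higher and 1 was lower, with 13.4% of all genes called. RAB26, a small GTPase of granule maturation, was at 21.9, 44.7, 25.7 and 29.8 TPM against 107, 164, 106, 107 and 154 TPM (log2 fold change -2.06 ± 0.34 SE, adjusted p = 0.0011). STXBP2, a syntaxin-binding protein, and UNC13D, a vesicle priming factor, had log2 fold changes of -1.23 and -1.17, and under TMM scaling of -0.97 and -0.99, where neither was called. STXBP2 was not called with the animal as a fixed block either (adjusted p = 0.094). SYTL1 (-1.15, adjusted p = 0.030; 0.13 with a fixed block) lost its call without the submandibular library of baboon 1, 4 or 5 or the pancreas library of baboon 1, 2 or 3 (highest adjusted p 0.096). SYT7, a calcium sensor, had 1.32 ± 0.31 and was not called with all 5 submandibular libraries (adjusted p = 0.21). RAB3D, a GTPase of zymogen granules, was not called, at 10.4 ± 3.36 against 23.5 ± 11.8 TPM (adjusted p = 0.13), and was called without either library of baboon 5.

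Of 42 genes of translocation and folding in the endoplasmic reticulum, 1 was higher, 10 were lower and 31 were not called, with a median of -0.56. Among all genes tested 11.4% were called and 7.21% were lower, both smaller shares than among these 42. Under TMM scaling 1 was higher and 8 were lower. With all 5 submandibular libraries 3 were lower and none higher. ERO1B, the oxidase that is typical of pancreatic secretory cells, was at 3.02, 4.48, 2.83 and 2.56 TPM against 45.3, 50.4, 38.3, 37.1 and 30.5 TPM (log2 fold change -3.30 ± 0.29, adjusted p = 7.6e-06). SSR4, a subunit of the translocon-associated complex, averaged 103 ± 19.3 against 491 ± 118 TPM. XBP1, the transcription factor of the unfolded protein response, had a log2 fold change of -1.70 (adjusted p = 0.0095) and was not called with all 5 submandibular libraries (adjusted p = 0.11). ERN2, the sensor of mucous cells that splices XBP1, was the gene that was higher, at 0.863 to 2.03 TPM against 0 to 0.105 TPM. The chaperone gene HSPA5 was at 33.0 ± 8.50 against 63.5 ± 24.6 TPM and was not called; without the submandibular or the pancreas library of baboon 5 it was.

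Immune transcripts that serve secretory immunity were higher in the submandibular gland. Of 8 plasma cell and immunoglobulin A transport genes tested, 6 were higher, DERL3 was lower and 1 was not called, with a median of 1.26. The shares over all genes were 4.18% higher and 7.21% lower. With all 5 submandibular libraries 5 were higher and 1 was lower. JCHAIN, which joins secreted immunoglobulin A into dimers, was at 835, 1100, 718 and 740 TPM against 25.8 to 70.3 TPM (log2 fold change 4.30 ± 0.37 SE, adjusted p = 6.0e-06; 574 TPM in the omitted library). PIGR, the epithelial receptor that carries it into saliva, was at 54.7, 10.5, 13.2 and 24.9 TPM against 1.01 to 4.97 TPM (2.74 ± 0.51, adjusted p = 0.0027). MZB1 and TNFRSF17, plasma cell genes, had log2 fold changes of 2.69 and 1.45. DERL3, an endoplasmic reticulum degradation gene that pancreatic acini also express, was at 34.8 ± 12.4 against 186 ± 27.0 TPM.

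Marker lists of other cells were used to see what else the sections held. CD79A, a B-cell gene, was called among 6 lymphocyte genes (log2 fold change 1.85) and CD74, an antigen-presentation gene, among 8 macrophage genes (1.89). None of 10 adipocyte, 11 skeletal muscle, 7 stratified mucosa or 12 endothelium and fibroblast genes was called, although 1 library stood far above the rest: the summed adipocyte level was 12437 TPM in the submandibular library of baboon 5 and 154 to 1129 TPM in pancreas. In the omitted submandibular library it was 6068 TPM, and the endothelium and fibroblast sum was 5796 TPM. Of 5 nerve genes SOX10 alone was called. Of 12 hepatocyte genes tested 7 were lower (1 with all 5 submandibular libraries), with a median of -1.45, and their sum was 265 to 662 TPM against 922 to 1547 TPM in pancreas and 100895 to 127030 TPM in liver. The part of these cells in the results above was not tested, other than by leaving out each library.

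**Figure D5:**
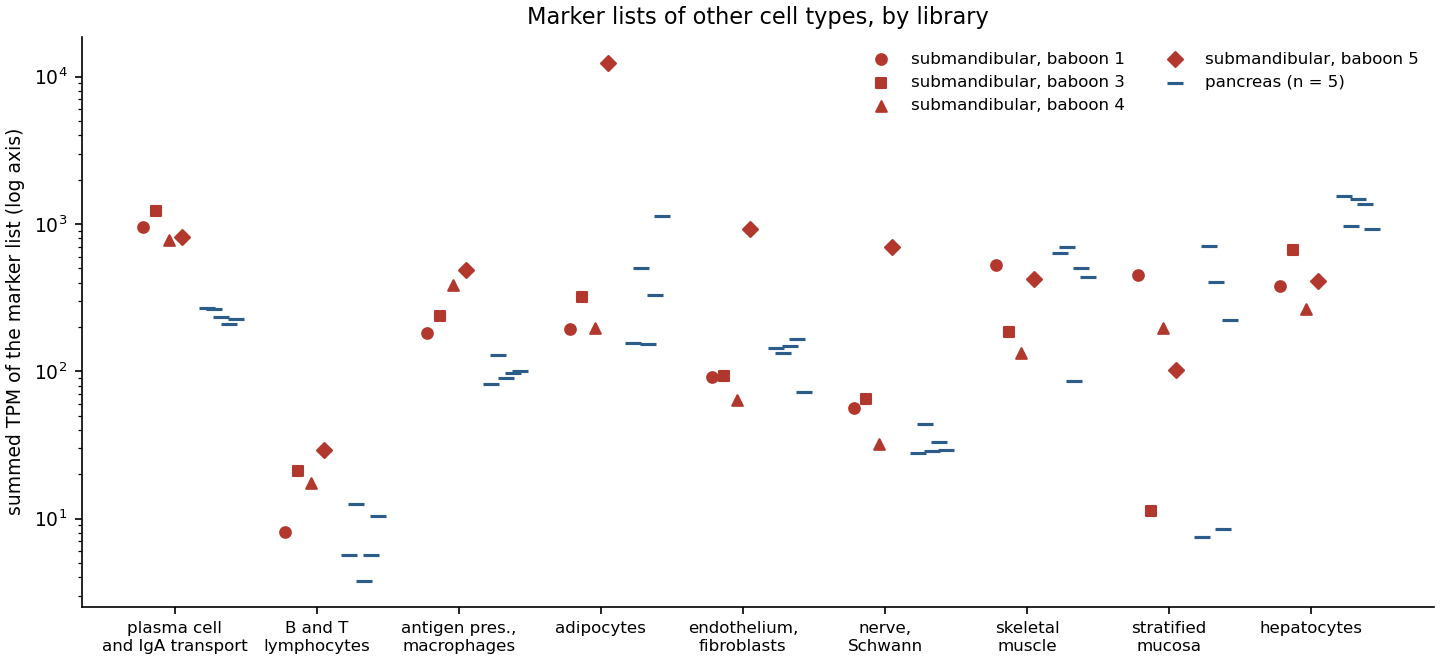
Summed TPM of 9 marker lists of other cell types (x axis) on a log axis, with 1 red symbol per submandibular library and 1 blue dash per pancreas library. The plasma cell list is higher in all 4 submandibular libraries, and the submandibular library of baboon 5 lies far above the others for adipocyte, endothelium and fibroblast, and nerve genes.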

How the data were processed

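The labels gave the tissue and animal of every library. Per the labels' protocols, total RNA came from frozen sections, was DNase treated, and a sequencing company ran it on Illumina HiSeq. The deposited values are TPM per gene, made by the authors, and the table's name gives kallisto as their source. The submitters' processing notes also name FastQC, MultiQC, cutadapt, HISAT2, SAMtools, featureCounts and DESeq2; their versions, the kallisto index and the genome build are not given in the sources used here. Each library sums to 999999.5 to 1000000.6 TPM, so a few high genes lower all others, and read depth is unknown. All 21287 symbols matched the RefSeq gene table of Panubis1.0, which was used for names and gene order only.

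Values were analysed as log2(TPM + 1). Genes averaging 1 TPM or more in one of the groups entered the model, which used limma 3.58.1 under R 4.3.3: duplicateCorrelation with the animal as block (consensus correlation -0.15), lmFit, and eBayes with a trend. The p-values were adjusted by Benjamini-Hochberg over all genes. Submandibular gland against liver was fitted in the same way. The interval genes were tested by exact permutation in Python 3.11.15 with scipy 1.17.1. TMM and median-of-ratios factors were computed from the TPM values in R; no count test was run. The fit was also run on simulated data with known changes, independent values and the means and spreads of pancreas. That simulation held no animal effect and not the spread of the submandibular libraries, so it checked the code only. The same animal number was taken to mark the same animal. Deviations of the 4 same-animal pairs correlated at 0.0976 to 0.300, against -0.27 to 0.236 for 16 pairs from different animals. These ranges overlap, so the correlations cannot settle the pairing. The labels name no sequencing batch. Replicates are single libraries of separate animals.

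Genes named are members of the fixed lists, the 12 highest and 12 lowest called genes that averaged 10 TPM or more and had 1 direction in all 4 pairs, and LOC genes of at least 2000 TPM; others are marked as chosen after their values were seen. A few list members are counted but not reported here by name. The members, gene lists, rule and tests were chosen with earlier results of these data known. Alternatives were other blocks, all 5 submandibular or all 25 libraries in the fit, 2 scalings, a pseudocount of 0.1, 2 other filters, no trend and leaving out each library.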

Additional observations from a re-analysis of the deposited data

Results flagged for a closer look

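Of 308 groups checked (154 genes in the submandibular and in the pancreas libraries), 20 had 1 library whose gap to its nearest neighbour, relative to the range of the group, passed Dixon's critical value; chance flags about 1 in 20 groups. The pancreas library of baboon 5 was apart in 7. It was low for PRH2 (1711 TPM, others 5733 to 6440), LOC103881672 (3278 TPM) and LOC101021528 (1546 TPM), which are abundant in the submandibular gland, and for LOC101023064 (215 TPM). It was also low for LOC101010627 (16460 TPM), GALNT12 (1.36 TPM) and GRPR (0.260 TPM). In the pancreas of baboon 2, REG1B (21.7 TPM), ELF3 (24.6 TPM), MYH11 (1.60 TPM) and ADRB1 (0.392 TPM) were high.

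Among the submandibular libraries, baboon 5 was high for GLP1R (1.80 TPM, others 0.0463 to 0.0844), ABCC8 (0.311 TPM) and SLC4A4 (0.250 TPM). Baboon 3 was high for MZB1 (30.6 TPM, others 11.9 to 12.9), DPEP1 (2.78 TPM) and GRPR (0.0154 TPM, others 0). Baboon 1 was high for SOX9 (8.52 TPM), SYT7 (4.43 TPM) and TFF3 (1.34 TPM). The causes were not tested.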

How the results depend on the processing

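Depth cannot be read from TPM, values near 0 are imprecise, and 4 against 5 libraries from animals of which 1 is male leave sex and the library of baboon 5 untold apart. Of 154 genes named, 134 were called; 107 kept call and direction under every alternative in which they were tested (7 of them fell below the filter of 5 TPM), 27 lost the call under at least 1 and none of the 134 reversed. The fit on all 25 libraries changed the most, with 24 of the 154 losing a call.

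The 1309 genes called became 817 with all 5 submandibular libraries, 676 with all 25 libraries in the fit, and 1018 to 2176 when 1 library was left out. The 480 higher became 774 under TMM scaling, 768 under median-of-ratios scaling, 168 with all 25 libraries, 309 with a mean of at least 5 TPM (5600 genes tested), and 403 to 527 when 1 library was left out. The 829 lower became 464 with all 5 submandibular libraries, 508 with all 25 libraries, and 582 to 1649 when 1 library was left out. Against liver, TMM scaling gave 3323 genes, 1436 higher and 1887 lower. The causes were not tested. Without the replicate block 1429 genes were called, and with the animal as a fixed replicate block, which drops the unpaired pancreas library, 1134 (470 higher, 664 lower); against liver 5078 were called without the replicate block. With sign changes within animals as the replicate block, an alternative chosen after seeing the data, the interval sum differed by -5.38 (log2) and the share of LOC116268615 by 63.5 percentage points, each as large in 2 of 16 sign arrangements, the fewest that 4 pairs allow.

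CHRM3 and SOX9, neither called, changed sign: CHRM3 to 0.23 under TMM and 0.23 under median-of-ratios scaling, 0.058 with the fixed replicate block and -0.14 to 0.12 without single libraries; SOX9 to 0.21 under both scalings and -0.30 to 0.16 without single libraries.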

Other observations

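The following genes were chosen after their values were seen. IL22RA1, a subunit of the receptor for interleukin 22, was at 1.14, 1.80, 0.681 and 0.696 TPM in the submandibular libraries of baboons 1, 3, 4 and 5 and at 290, 309, 359, 217 and 197 TPM in pancreas (log2 fold change -7.05 ± 0.33 SE, adjusted p = 2.1e-08). PTK6, a non-receptor tyrosine kinase of epithelia, was at 0.282 ± 0.096 TPM (SD, n = 4) against 104 ± 9.56 TPM (n = 5), with a log2 fold change of -6.35. SLC39A5, a zinc transporter, was at 0.967 ± 0.421 against 146 ± 40.4 TPM. IL22RA1 was at 2.85 to 8.20 TPM in liver.

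On the salivary side, PGLYRP1, a bactericidal peptidoglycan recognition protein, was at 32.6, 34.3, 33.9 and 28.7 TPM against 0.772 to 2.46 TPM (log2 fold change 3.77 ± 0.29, adjusted p = 1.8e-06). DNASE2B, a deoxyribonuclease, was at 74.3 ± 35.7 against 3.83 ± 0.34 TPM. LACRT, lacritin, a secreted glycoprotein best known from tears, was at 12.2, 17.1, 18.5 and 5.94 TPM against 0.193 to 0.679 TPM. IL19, a cytokine of the interleukin 10 family, was at 8.21 to 16.4 TPM against 0.175 to 0.896 TPM (log2 fold change 3.16 ± 0.27), and was at 0.114 TPM in the submandibular library of baboon 2. With all 5 submandibular libraries the 4 genes remained called, with adjusted p of 0.0070 to 0.025.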
